A study of Mus musculus with 4 samples.

Results

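CXCL13 and 7 further genes were followed through the human T, NK and B cells of MDA-MB-231 tumors. The further genes were IL21, CXCR5, BCL6, TOX2, CD200, TNFSF4 and GNG4, and the set was named after follicular helper-like T cells. The set was 8 of the 36601 genes in the count tables, matched by symbol, and each symbol had 1 gene identifier. The genes were chosen by their levels across T cell subsets, NK cells and B cells of these same data. Their levels by subset and their joint detection with CXCL13 are therefore descriptions without a test, and only the comparison of maraviroc with untreated mice was tested. The name of the set held in part. Among T cell subsets CD200 was highest in CD8-negative conventional T cells in both reactions and GNG4, CXCL13 and IL21 clearly so in 1 of them. By contrast, CXCR5 was nearly absent from T cells. BCL6 was higher in B cells than in the T cell subsets, with overlapping intervals for regulatory T cells in reaction 1.

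MDA-MB-231, a human triple-negative breast cancer line, was grown in the mammary fat pad of MISTRG mice, an immunodeficient strain with human cytokine genes that had been engrafted with human CD34+ hematopoietic cells. Untreated mice (n = 7, hashtag name CTRL) were compared with mice given maraviroc, a small-molecule drug, in drinking water (n = 7, hashtag name MARAVIROC). All groups shared the strain, the tumor line and engraftment with human cells, and the sorted cells were live and positive for human CD45. Hashtag antibodies marked the mouse of each cell, and the mice were run in 2 droplet reactions, with 4 untreated and 3 maraviroc mice in reaction 1 and 3 untreated and 4 maraviroc mice in reaction 2. Mice may share a human donor, so the spread between mice need not be the spread between donors. The T cells of this model are the progeny of grafted stem cells in a mouse host.

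CXCL13 is a chemokine that draws cells bearing the receptor CXCR5, above all B cells, into follicles. In human tumors and inflamed tissue it is also made by T cells that lack CXCR5, called peripheral helper cells when they are CD4 positive, and by chronically stimulated CD8 T cells. IL21 is the helper cytokine for B cells, BCL6 is the transcription factor that directs follicular helper fate, and TOX2 is an HMG-box factor induced with it. CD200 is an inhibitory surface ligand, TNFSF4 encodes OX40 ligand, and GNG4 encodes a G protein gamma subunit that is often listed among helper cell genes.

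Reaction 1 held 29120 barcodes with 133089612 UMIs and reaction 2 held 13582 barcodes with 175447534 UMIs, where a UMI stands for 1 captured mRNA molecule. Barcodes with more than 600 and at most 6000 detected genes and a mitochondrial share under a fixed limit were kept, 27645 in reaction 1 and 10161 in reaction 2. Their median depth was 2752 UMIs in reaction 1 and 10742 in reaction 2. Hashtags called 36.8% of the kept barcodes of reaction 1 and 21.1% of those of reaction 2 as doublets. The reactions had 136 barcode sequences in common, 105 of them among kept barcodes in each. T cells were gated on CD3D, CD3E, CD3G and TRAC, with 1721 cells in reaction 1 and 2584 in reaction 2, and were split into regulatory T cells with a FOXP3 and no CD8A or CD8B UMI (301 and 809), CD8 T cells with a CD8A or CD8B and no FOXP3 UMI (532 and 851) and CD8-negative conventional T cells with neither (837 and 821). The 51 and 103 T cells with both kinds of UMI counted in all T cells but in none of these subsets, and formed pools of their own in the correlation below. NK cells (320 and 340), B cells (86 and 172) and myeloid cells (23413 and 6197) served as the other types, and no gate used any of the 8 genes. The conventional gate rests on not detecting FOXP3 or CD8 UMIs, and 150 of its cells in reaction 1 and 409 in reaction 2 had a CD4 UMI. In reaction 1 its median depth was 2765 UMIs, against 5422 in CD8 T cells, while in reaction 2 the medians were 7130 and 7373. Its 4 NK markers were all detected and summed to 121 CPM in reaction 1 and 43.0 CPM in reaction 2, against 896 and 1047 in NK cells, where CPM is a gene's share of all UMIs in the gate on the usual per-million scale. Its 10 myeloid markers summed to 323 and 121 CPM, and the part of these cells in the values below was not tested. T cells also had to have more T than B or myeloid marker UMIs, and B cells more B than T, NK or myeloid marker UMIs. Levels with this requirement dropped, so that barcodes of mixed lineage counted, were recomputed in conventional T cells and B cells and are given beside the levels they moved.

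CXCL13 (ENSG00000156234) stood at 483 CPM in the conventional T cells of reaction 1 (95% exact Poisson interval 461 to 505) and at 1052.5 in those of reaction 2 (1028 to 1077). Intervals of this kind, and those on shares of cells, cover counting error only. In CD8 T cells the level was 480 (458 to 503) in reaction 1 and 398 (383 to 413) in reaction 2. Conventional and CD8 T cells therefore had overlapping intervals in reaction 1 and clearly separate ones in reaction 2. Regulatory T cells were lower in both, at 264 and 105 CPM. Some conventional T cells had a UMI of TCF7 or LEF1, both transcription factors of less differentiated T cells. Those cells had 617 CPM in reaction 1 and 1185 in reaction 2, and the others had 407 and 854. The cells with such a UMI were deeper, with median UMIs of 6925 against 2385 in reaction 1 and 8434 against 5980 in reaction 2. With cells thinned to 3000 UMIs, the shares with a CXCL13 UMI were 16.5% and 17.4% in reaction 1. In reaction 2 they were 24.0% and 17.0%, and the intervals overlapped in both reactions. Conventional cells with a CD4 UMI had 735 and 1303 CPM, and those without had 400 and 764. Their median UMIs were 5384 against 2485 in reaction 1 and 7592 against 6532.5 in reaction 2. After the same thinning the shares with a CXCL13 UMI were 21.6% and 15.6% in reaction 1 and 27.5% and 13.6% in reaction 2. With barcodes of mixed lineage counted, the conventional level was 304 CPM in reaction 1 and 841 in reaction 2. NK cells had 4.51 and 2.97 CPM and B cells 19.7 and 8.44. In the plot of levels by gate the T cell subsets lie far above NK and B cells for CXCL13, whereas BCL6 and CXCR5 have their high points elsewhere.

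**Figure D1:**
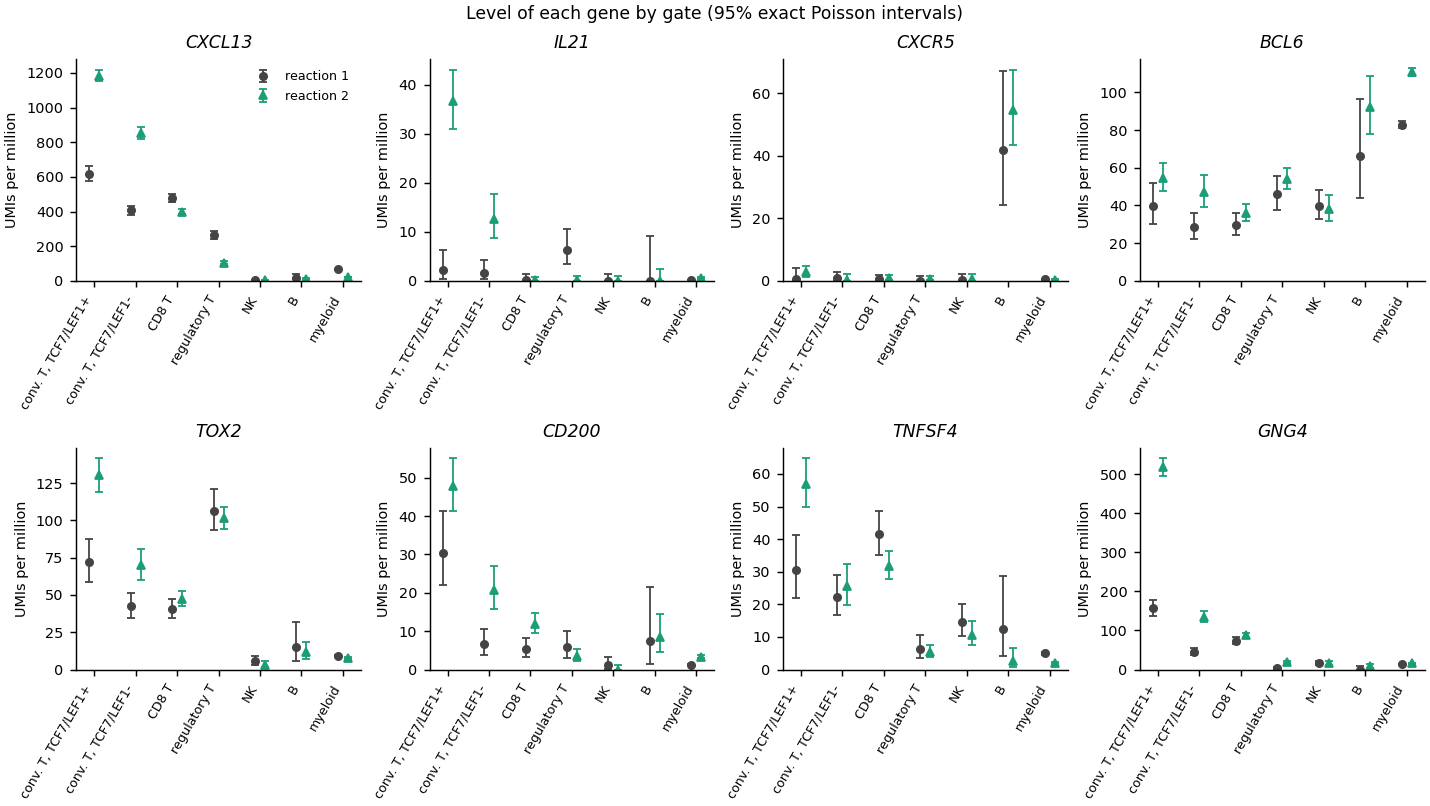
Level of each of the 8 genes (vertical axis, CPM, linear from 0) in 7 gates of reaction 1 (circles) and reaction 2 (triangles), with 95% exact Poisson intervals. CXCL13 reached 1185 and GNG4 519 in TCF7 or LEF1 positive conventional T cells of reaction 2, while CXCR5 reached 54.6 in B cells and stayed under 3 in every T cell gate shown.

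The share of T cells with a CXCL13 UMI was 19.3% in reaction 1 (exact binomial interval 17.5 to 21.2) and 15.8% in reaction 2 (14.4 to 17.3). NK cells, which should not make CXCL13, gave 2.5% and 2.94% at median depths of 7209.5 and 8569.5 UMIs, against 4433 and 7340 in T cells. With every cell thinned to 3000 UMIs the shares were 17.4% and 12.465% in T cells and 0.797% and 0.604% in NK cells, leaving out 644 and 81 shallower T cells and 69 and 9 shallower NK cells. The transcript was concentrated in few cells. In reaction 1 the 103 T cells with at least 10 CXCL13 UMIs, 5.98% of T cells, held 83.0% of the CXCL13 UMIs of the T gate. In reaction 2 the 205 such cells, 7.93%, held 95.4%. The highest counts in a cell were 362 and 275 UMIs. No NK or B cell had 10 or more, and their highest count was 5.

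By mouse, summed over hashtag singlets, the lowest, median and highest CXCL13 levels in all T cells were 99.4, 311 and 718 CPM without treatment and 2.19, 390 and 909 CPM with maraviroc. The groups overlapped over nearly their whole range. The 2 lowest mice were maraviroc mice 1 and 2, with 1 CXCL13 UMI in 51 T cells and 8 in 98. In conventional T cells the lowest, median and highest levels were 138, 217 and 1670 CPM without treatment and 0, 881 and 1230 CPM with maraviroc. Untreated mouse 5 was the highest and held 26.9% of the CXCL13 UMIs of T singlets with 17.6% of the cells. Conventional T cells exceeded regulatory T cells in 10 of the 11 mice with at least 10 cells of each, NK cells in 13 of 14 and CD8 T cells in 8 of 12. The order of conventional over CD8 T cells was thus not shared by all mice.

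**Figure D2:**
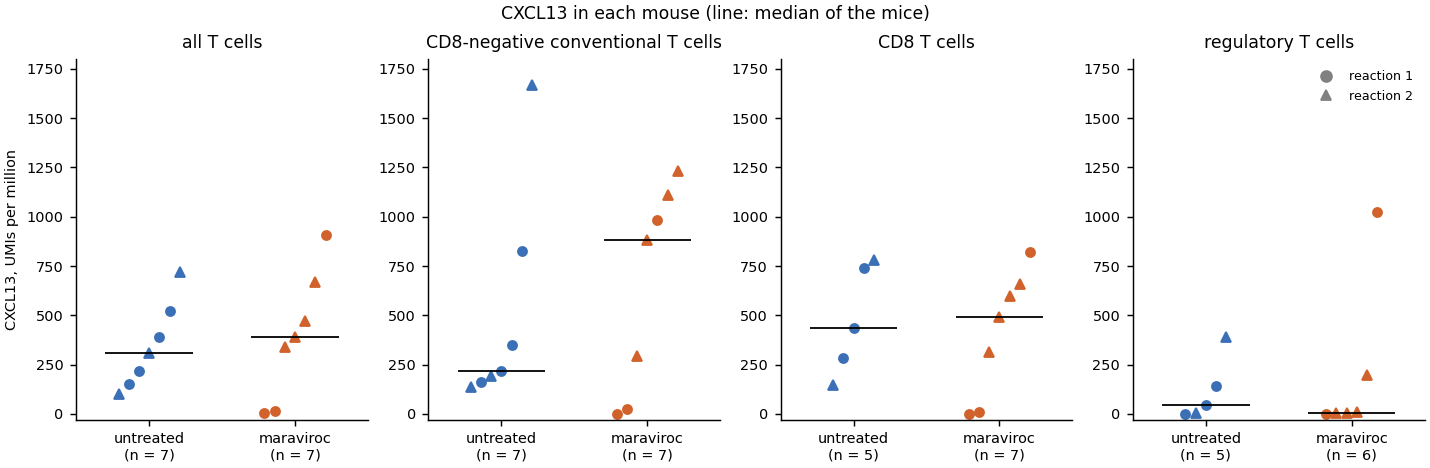
CXCL13 level per mouse (vertical axis, CPM, linear) in all T cells and 3 subsets, for untreated (blue) and maraviroc (orange) mice with at least 10 cells, circles for reaction 1 and triangles for reaction 2, lines at the median. In all T cells the untreated mice lie between 99.4 and 718 and the maraviroc mice between 2.19 and 909, and 1 maraviroc mouse at 1024 stands apart in regulatory T cells.

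The regulatory value of reaction 1 rested on 1 mouse and largely on 1 cell. A barcode of maraviroc mouse 3 in that gate, with 21727 UMIs, carried 362 CXCL13 UMIs, 61.5% of the gate's total, and all 14 IL21 UMIs of the gate. It had 2 FOXP3, 6 CD4 and 0 IL2RA UMIs. Among hashtag singlets the regulatory level of reaction 1 was 44.9 CPM without this mouse and 277 to 324 CPM without each of the other mice. In reaction 2 the level without each mouse ran from 78.8 to 132 CPM.

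Myeloid barcodes also carried CXCL13 UMIs. They held 6535 of the 11433 kept CXCL13 UMIs in reaction 1 and 1886 of 13472 in reaction 2, while the T gate held 38.3% and 81.4%. Their level was 66.2 and 21.5 CPM. Among myeloid barcodes of reaction 2 it was 4.17 in hashtag singlets and 55.3 in hashtag doublets, and in reaction 1 it was 31.2 in singlets, 103 in doublets and 73.8 in barcodes without a hashtag. Of the myeloid barcodes with at least 10 CXCL13 UMIs, 121 of 131 in reaction 1 and 32 of 32 in reaction 2 also had a UMI of a T cell marker, against 41.3% and 18.3% of the myeloid barcodes without CXCL13. The part of joint capture of a T cell in the myeloid value was not tested further. Of all CXCL13 UMIs, 11433 of 12973 in reaction 1 and 13472 of 19530 in reaction 2 lay in kept barcodes.

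IL21 (ENSG00000138684) was, in reaction 2, the member most restricted to 1 subset. There conventional T cells held 182 of the 185 IL21 UMIs of the T gate, or 98.4%, and those with a TCF7 or LEF1 UMI held 80.0% with 16.4% of the T cells. The level was 27.0 CPM in conventional T cells of reaction 2 (23.3 to 31.3) and 41.4 in those with a CD4 UMI, against 0.139 in CD8 T cells. No IL21 UMI was seen in NK or B cells of either reaction, and 0 of 340 NK cells of reaction 2 allows a share of cells with an IL21 UMI of up to 0.882%, taking 3 counts as the limit of a count of 0. Myeloid barcodes did carry IL21, with 18 of the 40 kept IL21 UMIs in reaction 1 and 53 of 242 in reaction 2. The part of joint capture of a T cell in these was not tested. In reaction 1 conventional T cells had only 7 IL21 UMIs, a level of 1.84 (0.738 to 3.78), and the regulatory gate had more, the 14 of the cell described above. With barcodes of mixed lineage counted, the conventional levels were 0.878 and 22.4 CPM. By mouse, the lowest, median and highest levels in conventional T cells were 0, 0 and 45.4 CPM without treatment and 0, 9.52 and 31.6 CPM with maraviroc. Untreated mouse 5 held 47.3% of the IL21 UMIs of T singlets, and without it the level in conventional T singlets of reaction 2 was 20.5 CPM, against 26.3 to 29.4 CPM without each of the other mice. Of the 53 conventional T cells of reaction 2 with an IL21 UMI, 41 had a CD4 UMI, 39 a TCF7 or LEF1 UMI, 40 TOX2, 38 GNG4, 32 CXCL13 and 23 CD200. Their median depth was 10756 UMIs, against 6845 in the others, and 3 of them had a CXCR5 UMI.

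CXCR5 (ENSG00000160683), the receptor for CXCL13, was higher in B cells than in T cells. It stood at 41.9 CPM in B cells of reaction 1 and 54.6 in those of reaction 2. The B cell level rests on the requirement that B markers lead, and with barcodes of mixed lineage counted it was 3.04 CPM in reaction 1 and 4.94 in reaction 2, against 0.878 and 2.58 in conventional T cells. T cells held 5 CXCR5 UMIs among 1721 cells in reaction 1 and 23 among 2584 in reaction 2. In conventional T cells the level was 0.787 (0.162 to 2.30) and 1.78 (0.922 to 3.12), beside 0.376 and 0.594 in NK cells. B cells were above conventional T cells in 10 of 10 mice with at least 10 cells of each. In reaction 2, 10 of the 11 conventional T cells with a CXCR5 UMI also had a TCF7 or LEF1 UMI, and 5 had a CXCL13 UMI. Of all 821 conventional T cells of that reaction, 424 had a TCF7 or LEF1 UMI and 192 a CXCL13 UMI.

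BCL6 (ENSG00000113916) had 66.5 and 92.2 CPM in B cells and 82.9 and 111 in myeloid cells. Its T cell levels were lower and close together, at 32.8 and 51.7 in conventional, 46.1 and 54.3 in regulatory and 29.9 and 36.1 in CD8 T cells, beside 39.8 and 38.3 in NK cells. The intervals of conventional and regulatory T cells overlapped in both reactions. Conventional T cells were above regulatory T cells in 6 of 11 mice and above NK cells in 7 of 14, so these neighbours had no common order. With barcodes of mixed lineage counted, BCL6 was 56.2 and 68.8 CPM in conventional T cells and 97.0 and 121 in B cells. B cells were above conventional T cells in 8 of 10 mice.

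TOX2 (ENSG00000124191) was higher in regulatory than in conventional T cells in reaction 1, with overlapping intervals in reaction 2. Regulatory T cells had 107 CPM in reaction 1 (93.4 to 121) and 101 in reaction 2 (94.1 to 109), and conventional T cells had 53.0 (45.9 to 60.8) and 106 (98.3 to 114). By mouse, regulatory T cells exceeded CD8 T cells in 11 of 11 mice and conventional T cells in 8 of 11. Conventional T cells ran from 24.2 to 72.5 CPM in the mice of reaction 1 and from 60.6 to 132 CPM in those of reaction 2. With barcodes of mixed lineage counted, the conventional levels were 28.4 and 88.1 CPM. NK cells had 5.64 and 3.26.

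CD200 (ENSG00000091972) was highest in conventional T cells, at 15.2 (11.5 to 19.7) and 37.0 (32.6 to 41.9) CPM, and within them in the TCF7 or LEF1 positive cells, at 30.5 and 47.8. CD8 T cells had 5.39 and 11.9 and regulatory T cells 5.82 and 3.56. Conventional T cells were above regulatory T cells in 11 of 11 mice and above CD8 T cells in 11 of 12. With barcodes of mixed lineage counted, the conventional levels were 6.36 and 30.9 CPM. NK cells held 3 CD200 UMIs in reaction 1 and 0 in reaction 2.

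TNFSF4 (ENSG00000117586) and GNG4 (ENSG00000168243) shared a low level in regulatory T cells. TNFSF4 had 41.5 and 31.9 CPM in CD8 T cells and 25.2 and 44.4 in conventional T cells, against 6.27 and 5.42 in regulatory T cells. The order of CD8 and conventional T cells turned between the reactions, and conventional T cells were higher in 5 of 12 mice. GNG4 had 85.7 (76.7 to 95.5) and 365 (351 to 380) in conventional T cells, 74.1 (65.6 to 83.4) and 87.2 (80.5 to 94.3) in CD8 T cells and 3.58 and 18.5 in regulatory T cells. The intervals of conventional and CD8 T cells overlapped for GNG4 in reaction 1 and were separate in reaction 2. With barcodes of mixed lineage counted, GNG4 in conventional T cells was 42.3 and 306 CPM. The TCF7 or LEF1 positive conventional T cells reached 157 and 519, against 45.5 and 136 in the others, and 48.1% of them had a GNG4 UMI in reaction 2, beside 6.76% of NK cells at a like depth (medians 8434 and 8569.5 UMIs). Both genes were higher in conventional than in regulatory T cells, and higher in CD8 than in regulatory T cells, in 11 of 11 mice. NK cells had 16.9 and 16.3 for GNG4 and 14.7 and 10.7 for TNFSF4, above the regulatory T cells for TNFSF4 in both reactions.

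For 1 gene, GNG4, the mice of the 2 reactions did not overlap. In conventional T cells, GNG4 ran from 54.7 to 154 CPM in the 7 mice of reaction 1 and from 176 to 582 in the 7 mice of reaction 2. It was the 1 member of 8 for which every mouse of reaction 2 lay above every mouse of reaction 1, where 1.23% of 12820 genes did so, and no member had every mouse below, where 0.71% did so. The other members overlapped: CXCL13 ran from 0 to 984 in reaction 1 and from 138 to 1670 in reaction 2, and IL21 from 0 to 5.96 and from 0 to 45.4. The median depth of the pooled conventional T cells differed between the reactions, as given above. In the T singlets of single mice the median ran from 4993 to 7883 UMIs in reaction 1 and from 6795 to 9868 in reaction 2. Cells with a TCF7 or LEF1 UMI were 172 of 837 conventional T cells in reaction 1 and 424 of 821 in reaction 2. The parts of reaction, depth and this makeup in the GNG4 levels were not tested. The plot by reaction shows GNG4 as 2 separate groups of mice.

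**Figure D3:**
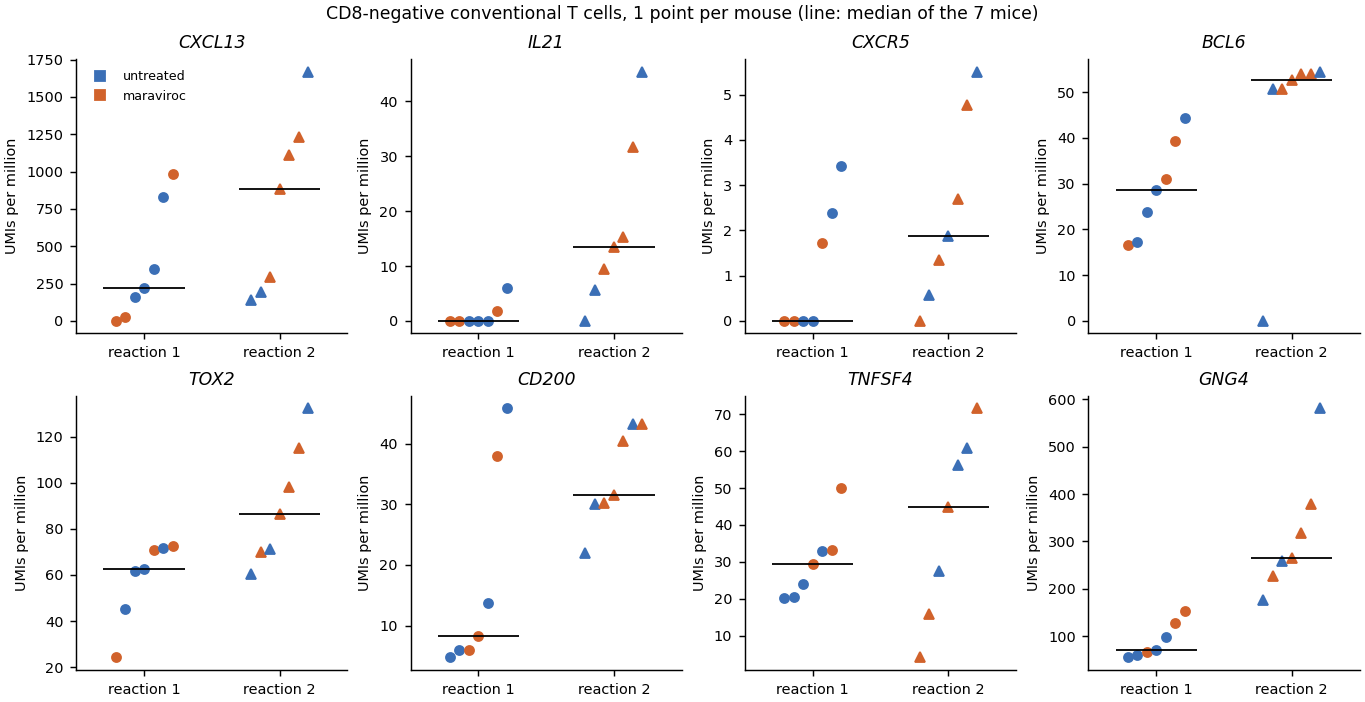
Level of each gene in CD8-negative conventional T cells per mouse (vertical axis, CPM, linear, each panel with its own range) for the 7 mice of reaction 1 (circles) and the 7 of reaction 2 (triangles), untreated in blue, maraviroc in orange, lines at the median. GNG4 separates the reactions (up to 154 against 176 or more), and the other genes overlap.

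To compare how many of the genes were detected in the same cell, cells were thinned to 3000 UMIs and shallower cells were left out. In reaction 1, 397 of 837 conventional T cells and 46 of 86 B cells entered, and in reaction 2, 792 of 821 and 162 of 172. Of the conventional T cells that entered, 3.53% in reaction 1 and 10.7% in reaction 2 had a UMI of at least 3 of the 8 genes, 14 and 85 cells. In CD8 T cells the shares were 3.05% and 2.81%, and in regulatory T cells 1.23% and 0.886%. No NK or B cell had 3 or more. Of the myeloid barcodes, 0.738% in reaction 1 and 0.329% in reaction 2 had at least 3, or 80 and 20 barcodes. Whether these had captured a T cell as well was not tested. At most 5 members were seen in a cell.

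Cells with at least 2 CXCL13 UMIs were then set beside cells of the same gate with none. Among conventional T cells these were 121 and 688 cells in reaction 1 and 162 and 629 in reaction 2. CXCL13-positive cells were deeper, with median UMIs of 3232 against 2687 and 9703 against 6406, and 28.9% against 21.2% and 29.0% against 17.6% of them had at least 2 UMIs of MKI67 or TOP2A, markers of dividing cells. The part of depth and cycling in the ratios below was not tested, beyond the scaling to CPM and the thinned shares.

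TNFSF4 was 66.7 CPM in CXCL13-positive and 15.5 in CXCL13-zero conventional T cells of reaction 1, a ratio of 4.30, and 128 against 13.7, a ratio of 9.34, in reaction 2. It was higher in the positive cells of all 10 mice that had at least 5 positive and 5 zero cells. GNG4 was 223 against 60.1 (ratio 3.71) and 849 against 185 (ratio 4.58), higher in 9 of 10 mice. After thinning, 58.4% of the CXCL13-positive and 15.1% of the zero cells of reaction 2 had a GNG4 UMI. TOX2 gave ratios of 2.69 and 2.40, in 10 of 10 mice, and CD200 gave 14.4 and 6.88, in 8 of 10, on 43 and 169 UMIs in the positive cells. IL21 was 50.5 against 13.9 in reaction 2, a ratio of 3.62, but higher in only 4 of 10 mice. Of all 14 mice, 8 had an IL21 UMI in conventional T cells, and a mouse without one could not be higher. BCL6 had a ratio of 0.968 in reaction 1 and 1.38 in reaction 2 and was higher in 4 of 10 mice. CXCR5 had 1 and 4 UMIs in the positive cells, too few to compare. Of the 5 members with at least 20 UMIs in each reaction, 4 were at least 2-fold higher in both reactions and none was at least 2-fold lower, where 0.675% of 10659 genes were so much higher and 0.835% so much lower. The fold was taken on CPM plus 10.

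In CD8 T cells, 112 positive and 386 zero cells in reaction 1 and 116 and 684 in reaction 2 entered. TNFSF4 had ratios of 5.12 and 3.97 and GNG4 of 3.17 and 4.43, both in 10 of 10 mice, and TOX2 had 2.66 and 2.83, in 9 of 10. BCL6 gave 0.409, on 14 UMIs in the positive cells, and 1.01. Of the 4 members with at least 20 UMIs in each reaction, 3 were at least 2-fold higher in both and none lower, where 0.599% of 10521 genes were higher and 0.532% lower. TNFSF4, GNG4 and TOX2 thus went with CXCL13 in both gates, as the plot of joint detection shows. The ratios in hashtag singlets alone were close: 4.42 and 9.42 for TNFSF4 and 4.07 and 4.39 for GNG4 in conventional T cells.

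In the FOXP3-positive, CD8-negative gate there were only 20 and 12 CXCL13-positive cells. Of the 2 members with at least 20 UMIs in each reaction, 1, TOX2, was at least 2-fold higher in both reactions (227 against 98.4 and 219 against 97.7 CPM). None was at least 2-fold lower in both. Of 9149 genes, 1.19% were so much higher and 2.15% so much lower. The other member, BCL6, was lower in both, at 27.5 against 46.6 and 41.5 against 55.5 CPM, on 4 and 7 UMIs in the positive cells. GNG4 was 521 against 5.76 in reaction 2, on 88 UMIs in 12 cells, and 34.4 against 1.44 in reaction 1, on 5 UMIs. Among hashtag singlets GNG4 was 501 against 3.34 in reaction 2 but 0 against 0.608 in reaction 1. TNFSF4 and CD200, also under that count, were higher in both reactions. TNFSF4 was 48.2 against 3.36 in reaction 1 and 136 against 1.97 in reaction 2, on 7 and 23 UMIs in the positive cells. CD200 was 61.9 against 1.92 and 71.1 against 1.82, on 9 and 12 UMIs, and the cell described above held 5 of the 9. Only 1 mouse had at least 5 positive and 5 zero cells in this gate. It had no GNG4 UMI there, so it could not show an order for GNG4. The few CXCL13-positive cells of this gate also stood apart in genes on the lists described next, named here after their values were seen. IL2RA, the high-affinity IL-2 receptor chain of regulatory T cells, was 13.8 against 567.5 CPM in reaction 1 and 254.7 against 750 in reaction 2. The inhibitory receptor CTLA4 was 268 against 412 and 178 against 432, and IL10 was 0 against 47.5 and 0 against 40.5. The cytokine IFNG was 61.9 against 8.64 and 261 against 5.61. IL2RA and CTLA4 were thus lower, and IFNG higher, in the CXCL13-positive cells of this gate. Other listed genes went differently. ENTPD1 was 427 against 249 and 373 against 304, and TNFRSF18 was 826 against 644 and 711 against 673. TIGIT and TNFRSF4 were higher in reaction 1 and lower in reaction 2. The cell with 0 IL2RA UMIs described above is among the positive cells of reaction 1, and its part in these values was not tested.

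**Figure D4:**
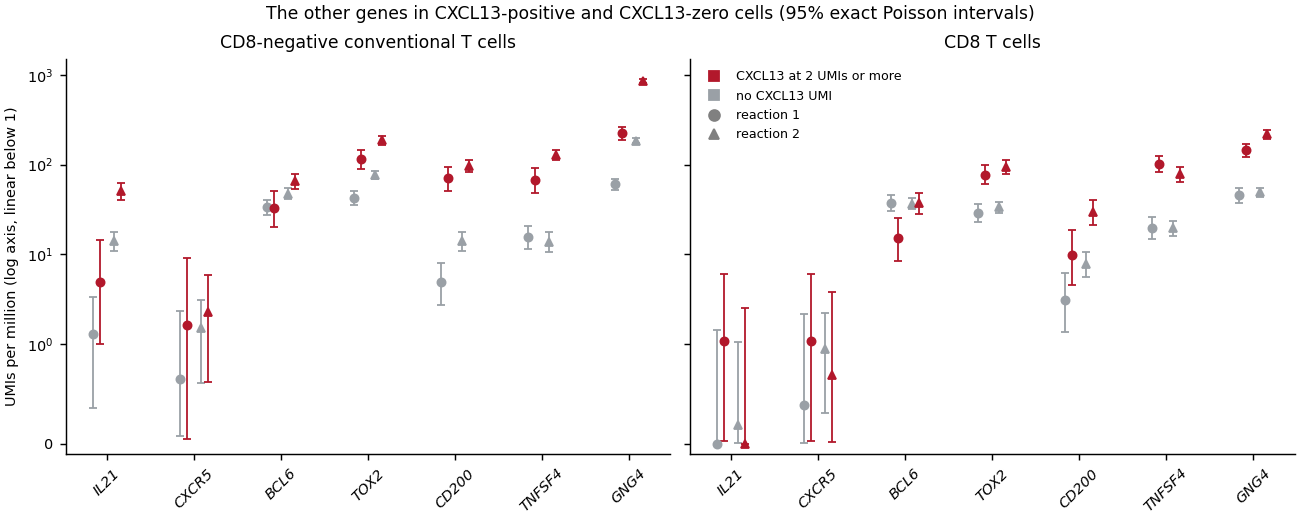
Level of the 7 other genes (vertical axis, CPM, log scale above 1 and linear below) in cells with at least 2 CXCL13 UMIs (red) and with none (grey) in conventional (left) and CD8 T cells (right) of reaction 1 (circles) and reaction 2 (triangles), with 95% exact Poisson intervals. TNFSF4, GNG4 and TOX2 have separate intervals in both gates and reactions, and the BCL6 intervals overlap in conventional T cells of both reactions.

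Other genes of the program were read from lists. Of 40 further genes of follicular and peripheral helper cells, 35 had enough UMIs in conventional T cells, 20 were higher in CXCL13-positive cells in both reactions and 7 lower in both, and 2 were at least 2-fold higher. The median log2 difference was 0.22 in reaction 1 and 0.40 in reaction 2, against 0.00 and -0.02 over all genes. Of all 10659 genes read, 3223 were higher and 3508 lower in both reactions. The 2 genes at least 2-fold higher in both reactions were NMB, encoding the peptide neuromedin B, and the cytokine IFNG. The largest mean differences were those of NMB at 1.96 and the phosphatase PTPN13 at 1.25. PTPN13 had 0.65 in reaction 1 and 1.85 in reaction 2. The lowest were the chemokine CCL3 at -0.67 and the cytokine IL10 at -0.87. In CD8 T cells 31 of the 40 could be read, 15 were higher and 7 lower in both reactions, with medians of 0.18 and 0.12, where 3567 of all 10521 genes were higher and 3546 lower and the medians were -0.01 and 0.01. In regulatory T cells 32 could be read, 14 higher and 10 lower, with medians of 0.42 and -0.06, where 2377 of all 9149 genes were higher and 2863 lower and both medians were -0.04.

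A second list, called opposed here, held 12 factors and receptors of recirculating, memory or otherwise opposed cells. It includes TCF7 and LEF1, although GNG4 and CD200 were higher in conventional T cells with a UMI of either. Of the 12 genes, 11 were read in conventional T cells. In both reactions 7 of them were lower and 1 was higher in CXCL13-positive cells, where 3508 of all 10659 genes were lower, 4 were at least 2-fold lower, and the medians were -0.77 and -0.55. KLF2, a factor that keeps T cells in circulation, had a mean log2 difference of -1.95, from 107 to 19.5 CPM in reaction 1 and from 217 to 49.95 in reaction 2. The IL-7 receptor gene IL7R had -1.74. Both were lower in the positive cells of 10 of 10 mice. At the other end stood the lymph node homing receptor CCR7 at 0.52 and the factor TCF7 at 0.08. LEF1, pooled with TCF7 above, was lower, at 6.51 against 29.7 CPM in reaction 1 and 48.2 against 75.3 in reaction 2. It was lower in the positive cells of 9 of 10 mice, and of 10 of 10 mice in CD8 T cells. In CD8 T cells 6 of the 10 read were lower and 1 higher, with medians of -0.25 and -0.63, where 3546 of all 10521 genes were lower, and in regulatory T cells 6 of 8 were lower and 1 higher, with medians of -0.35 and -0.72, where 2863 of all 9149 genes were lower.

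For a correlation with CXCL13, cells were summed into 16 pools. In each reaction these held regulatory T cells, CD8 T cells and the T cells with both FOXP3 and CD8 UMIs. Conventional T cells with and without a TCF7 or LEF1 UMI, NK, B and myeloid cells were the other pools. The genes whose level was most like that of CXCL13 over these pools were found by Pearson correlation of log2(CPM + 10) among 13092 genes. They were MFSD10 (r = 0.955), PDCD1 (0.933), CD6 (0.918), GSTK1 (0.913), CD3G (0.901), TNFRSF25 (0.884), KIAA1324 (0.874), MIR3142HG (0.872), TRAC (0.872) and ST8SIA1 (0.862). CD3G and TRAC among them are genes of T cells in general and were used in the T gate. Pools of a reaction share a library and its depth. Among the members TOX2 ranked 20 (0.846), TNFSF4 142 (0.740), GNG4 185 (0.723), CD200 487 (0.634) and IL21 1018 (0.556), whereas BCL6 ranked 12299 with a negative value of -0.48.

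Ligand and receptor partners were measured in the same gates. TNFRSF4, which encodes OX40, the receptor of TNFSF4, was highest in regulatory T cells, at 616 and 717 CPM, against 161 and 232 in conventional T cells, the reverse of its ligand. CD200R1, the receptor of CD200, was highest in NK cells at 74.8 and 78.9, with 59.0 and 54.5 in conventional and 13.4 and 19.0 in regulatory T cells. The IL-21 receptor gene IL21R lay between 113 and 174 in all lymphoid gates. CXCR3, a further chemokine receptor, was highest in regulatory T cells at 94.4 and 87.4. The B cells carried CR2 (64.0 and 66.9) and TNFRSF13C (128 and 121), the genes of complement receptor CD21 and the BAFF receptor.

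Maraviroc and untreated mice were compared to ask whether the drug altered these genes. Counts of hashtag singlets were summed per mouse and gate and fitted over all genes with reaction as a term (edgeR quasi-likelihood test, Benjamini-Hochberg adjustment). Of the 8 members, 6 passed the low-count filter in all T cells, 6 in conventional, 5 in CD8 and 3 in regulatory T cells, 1 in NK cells and 0 in B cells, and none was called in any gate. Over all genes the share called at adjusted p under 0.05 was 0% of 10507 in all T cells, 0% of 7288 in conventional T cells, 0.0367% of 8183 in CD8 T cells (3 genes), 0% of 7468 in regulatory T cells, 0% of 5533 in NK cells and 0% of 2556 in B cells. At unadjusted p under 0.05 the counts were 485, 219, 327, 325, 198 and 72, and DESeq2 called 0, 0, 4, 1, 0 and 2. At unadjusted p under 0.05 stood 1 member in all T cells (TNFSF4), 2 in CD8 T cells (GNG4 and TNFSF4) and 1 in regulatory T cells (BCL6). IL21 and CXCR5 were below the filter in every gate, so no fold change is given for them in the model of both reactions.

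CXCL13 differed by a log2 fold change of 0.14 ± 0.61 (SE) in all T cells, 0.12 ± 0.68 in conventional, -0.09 ± 0.54 in CD8 and 0.48 ± 1.02 in regulatory T cells. The 95% interval in conventional T cells ran from -1.22 to 1.45, so changes of more than 2-fold in either direction were within the error. Without maraviroc mouse 3 the value was -0.96 in all T cells and -0.83 in conventional T cells. In conventional T cells GNG4 had lowest, median and highest levels of 54.7, 98.4 and 582 CPM without treatment and 66.7, 228 and 379 CPM with maraviroc, a log2 fold change of 0.13 ± 0.26. CD200 had 4.77, 22.0 and 45.8 CPM against 6.05, 31.5 and 43.2 CPM, and 0.17 ± 0.37. The groups overlapped for both genes. For BCL6 and TOX2 in all T cells the intervals were narrower, -0.25 to 0.43 and -0.08 to 0.53.

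The closest to a call was GNG4 in CD8 T cells. The 5 untreated mice with at least 10 CD8 T cells had 44.8, 58.9, 60.8, 67.8 and 69.1 CPM, and the 7 maraviroc mice ran from 29.5 to 167 with a median of 96.1. Of the maraviroc mice 4 lay above every untreated mouse, 2 lay below, and the groups overlapped. The log2 fold change was 0.91 ± 0.29 with an unadjusted p of 0.0053 and an adjusted p of 0.822 (edgeR), and over the 6 alternatives the adjusted p ran from 0.000427, without the low-count filter, to 1. It was 0.78 in reaction 1 alone and 1.0 in reaction 2 alone. TNFSF4 in all T cells had lowest, median and highest levels of 18.6, 33.9 and 42.8 CPM without treatment and 10.4, 22.0 and 32.2 CPM with maraviroc, with overlap. Its log2 fold change was -0.62 ± 0.24 (edgeR adjusted p = 0.989), and it was negative in all 20 alternatives (adjusted p 0.239 to 1), -0.43 in reaction 1 and -0.75 in reaction 2. In CD8 T cells it was -0.68 ± 0.32, in conventional T cells -0.17 ± 0.40. The makeup of the T cells differed as well, with a regulatory share of T cells of 0 to 41.2% (median 15.8%) in untreated mice and of 13.3 to 42.7% (median 29.6%) in maraviroc mice, and regulatory T cells had the lowest TNFSF4 levels of the T cell subsets. The part of this makeup in the all-T value was not tested.

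In regulatory T cells BCL6 was 48.9, 55.5, 62.2, 62.6 and 68.2 CPM in the 5 untreated mice and from 9.02 to 61.4, with a median of 31.3, in the 6 maraviroc mice. The groups overlapped, and the log2 fold change was -0.68 ± 0.28 (edgeR adjusted p = 0.986, and 0.143 to 1 over 6 alternatives). It was -2.13 in reaction 1, where 2 maraviroc mice entered with 13 and 65 cells, and -0.24 in reaction 2. CXCL13 in regulatory T cells turned direction between the reactions, 3.42 in reaction 1, where maraviroc mouse 3 carried the cell described above, and -1.66 in reaction 2.

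The share of T cells with a CXCL13 UMI averaged 15.4% ± 6.57 over the untreated mice (SD, n = 7) and 13.1% ± 7.42 over the maraviroc mice (SD, n = 7). The difference of -2.31 percentage points was within the spread between mice (two-sided exact permutation test, p = 0.544 over 3432 regroupings, smallest possible 0.000583). In reaction 1 alone it was -7.77 points (exact permutation p = 0.286) and in reaction 2 alone 2.83 points (exact permutation p = 0.343), and the smallest p that 3 against 4 mice allow is 0.0571. The share of cells with at least 10 UMIs was 6.29% ± 2.43 in untreated and 6.05% ± 4.29 in maraviroc mice (exact permutation p = 0.906, n = 7 each).

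**Figure D5:**
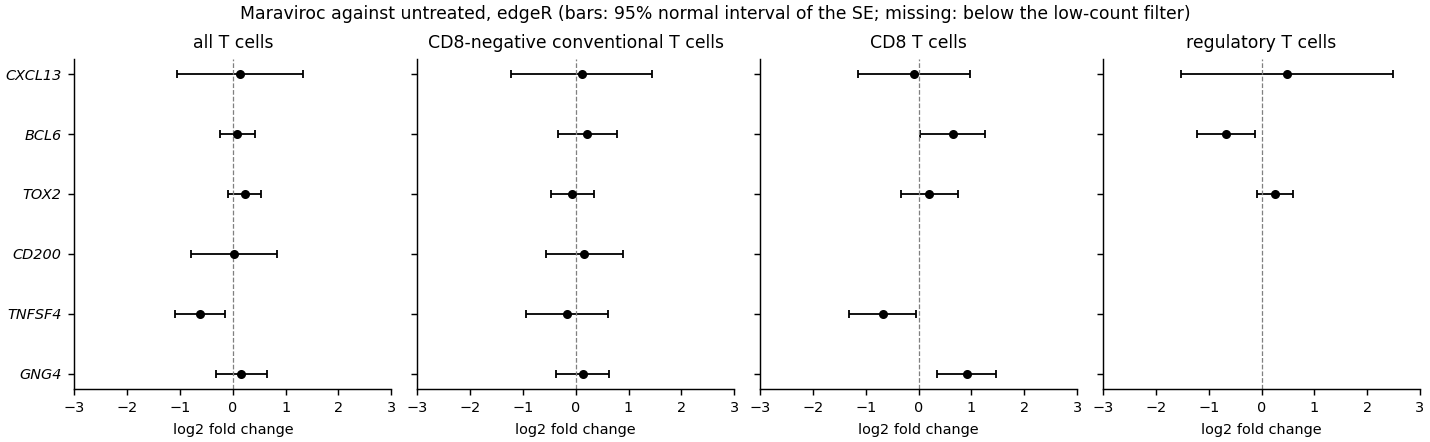
Log2 fold change of maraviroc against untreated mice (horizontal axis) for the members that passed the low-count filter in each of 4 gates, points for the edgeR estimate and bars for the 95% normal interval from its SE. No member was called after adjustment, and the interval of CXCL13 is the widest in each panel.

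Of the lists, none of the helper, opposed or partner genes was called in any gate. In all T cells 37 of the 40 helper genes were tested, 17 positive and 20 negative. Their median log2 fold change was -0.02, against 0.00 over all genes. The helper genes were most uneven in regulatory T cells, with 7 positive and 23 negative and a median of -0.12. There 3735 of all 7468 genes were positive. In conventional T cells 13 helper genes were positive and 20 negative, in CD8 T cells 12 and 15, in NK cells 8 and 12, and in B cells 3 and 4. Of the 12 opposed genes 11 were tested in all T cells and all 11 were positive, where 48.9% of all genes tested were positive. Their median was 0.25, and 2 of them had an unadjusted p under 0.05 (edgeR). Of the genes tested in CD8 T cells, 8 of 10 were positive with a median of 0.42 (51.1% of all genes), and in conventional T cells 8 of 10 with a median of 0.21 (48.7% of all genes). In regulatory T cells 4 of 8 were positive with a median of -0.10 (3735 of all 7468 genes), in NK cells 2 of 5 with a median of -0.10, and in B cells 1 of 5 with a median of -0.14. Of the 14 partners 9 were tested in all T cells, 6 positive and 3 negative, with a median of 0.02.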

How the data were processed

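Gene and hashtag reads were counted by the authors with Cell Ranger 9.0.1 on GRCh38, and Seurat 5.1.0 is named in the submitters' processing notes. The deposited tables hold raw UMI counts per gene and barcode, without normalization. The sample labels give the organism as mouse, while the counted genes are human, and they do not give the treatment, which was read from the hashtag names in the feature lists. The 8 genes and all gene lists were chosen with earlier results of these data known, and the gate rules were set after the counts were seen. Hashtags were called with HTODemux (Seurat 5.3.0, R 4.3.3, positive quantile 0.99). Levels by gate used all kept barcodes and values by mouse used hashtag singlets only; no other doublet caller was run.

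A T cell had at least 2 UMIs of the T markers, at least 1 of TRAC, and more T marker UMIs than NK, B or myeloid marker UMIs. NK, B and myeloid cells needed at least 2 UMIs of their markers and more than of the other types. Sums per mouse needed at least 10 cells and 3 mice of each treatment, and were tested with edgeR 4.0.16 (TMM, filterByExpr, reaction as a term), with DESeq2 1.42.0 as an alternative. Tables were made in Python 3.11.15 with NumPy 2.4.6, SciPy 1.17.1 and pandas 2.3.3. On simulated counts with 100 genes changed 2-fold and 100 changed 4-fold, the test found 81 and 91 of them in all T cells (10507 genes, 8 false calls) and 74 and 88 in conventional T cells (7288 genes, 5 false calls). With so many genes changed the adjustment is easier to pass than with few, so these counts are not the power for a member. The SE of CXCL13 was 0.61 in all T cells and 0.68 in conventional T cells. Named genes were the 8 members, at most 4 extremes per list and the 10 genes most like CXCL13. The partner genes named beyond 4 and the list genes named in the FOXP3-positive gate were chosen after their values were seen. LEF1 and IFNG in the list comparisons of conventional and CD8 T cells were also named after their values were seen. Promoter and protein sequences were not used here, and some fixed genes are not reported here.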

Additional observations from a re-analysis of the deposited data

Results flagged for a closer look

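A mouse that stood apart from the other 6 of its treatment by Dixon's ratio was found in 7 of 32 groups checked, where chance gives about 1 in 20. In all T cells these were CXCR5 in untreated mouse 7 at 3.98 CPM, which is 1 UMI in 23 cells, IL21 in untreated mouse 5 at 16.3 against 2.16 in the next mouse, TOX2 in maraviroc mouse 2 at 30.3 against 70.2 in the next, and CD200 in untreated mouse 2 at 42.5 against 19.9. In CD8-negative conventional T cells untreated mouse 5 was the highest untreated mouse for IL21 (45.4 against 5.96), GNG4 (582 against 259) and TOX2 (132 against 71.6). This mouse belongs to reaction 2 and supplied 607 of the T singlets. The groups mix mice of both reactions, whose levels differ, and 4 of the 7 cases are this mouse, so the chance rate is only nominal.

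The fold change of maraviroc differed between the reactions at an unadjusted p under 0.05 for 2 of 21 members by gate that were tested with an interaction term, both in regulatory T cells, and neither passed the adjustment over all genes. BCL6 had a difference of 1.92 ± 0.57 on the log2 scale (reaction 2 minus reaction 1, edgeR adjusted p = 0.430). CXCL13 had -5.12 ± 1.78 (edgeR adjusted p = 0.591), and 1 cell of maraviroc mouse 3 held 61.5% of its UMIs in that gate of reaction 1.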

How the results depend on the processing

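Without the low-count filter, on all genes with at least 1 count, the genes called for maraviroc were 34 in all T cells, 19 in conventional, 104 in CD8 and 47 in regulatory T cells, 19 in NK and 44 in B cells, against 0, 0, 3, 0, 0 and 0. GNG4 in CD8 T cells was then called (log2 fold change 0.87, edgeR adjusted p = 0.000427). CD8 T cells gave 1 call in reaction 1 alone and 0 in reaction 2 alone, and regulatory T cells gave 1 by DESeq2 and 2 in reaction 1 alone, while B cells gave 2 by DESeq2. The difference in the CXCL13-positive share was 2.83 points in reaction 2 alone, -3.56 at the stricter hashtag quantile, and -3.65 to -0.45 without each mouse. Permuting within reactions gave an exact permutation p of 0.553.

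Fold changes under the threshold turned sign as follows. In reaction 2 alone GNG4 was -0.21 and CD200 -0.33 in all T cells, GNG4 -0.25 in conventional T cells, CXCL13 0.22 in CD8 and -1.66 in regulatory T cells, and BCL6 -0.019 in NK cells. In reaction 1 alone BCL6 was -0.19 in all T cells, and TNFSF4 0.50 and CXCL13 -0.15 in conventional T cells. DESeq2 gave -0.24 for CD200 in all T cells, and leaving out the reaction term gave 0.062 for TOX2 in conventional T cells. Without each mouse in turn the ranges in all T cells were -0.057 to 0.57 for GNG4, -0.44 to 0.24 for CD200, -0.046 to 0.19 for BCL6 and -0.96 to 0.45 for CXCL13. In conventional T cells they were -0.45 to 0.060 for TNFSF4, -0.044 to 0.55 for GNG4, -0.15 to 0.40 for CD200, -0.83 to 0.82 for CXCL13 and -0.16 to 0.17 for TOX2. The lowest CXCL13 values were those without maraviroc mouse 3. The causes of these turns were not tested.

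Counting barcodes of mixed lineage moved levels by more than the spread between mice for BCL6 (56.2), GNG4 (42.3) and TOX2 (28.4) in conventional T cells of reaction 1, BCL6 in B cells of reaction 1 (97.0) and CXCR5 in B cells of reaction 2 (4.94). In 197 further recomputations of a level or fold change, leave-one-out settings aside, the direction and side of the threshold held or the value moved by less than that spread. The CXCL13-positive share in single reactions and at 10 UMIs, the levels without each mouse and the ratios in singlets were chosen after seeing the data. No paired analysis was possible because untreated and maraviroc animals were different mice with no label that pairs them. B cells in reaction 1 alone and their interaction term could not be fitted. Depth limits CXCR5 and IL21 most, with 5 and 22 UMIs in the T cells of reaction 1.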
